A study of Homo sapiens with 18 samples.

Results

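H3K4me1 Cut & Tag was compared between MOLM-13 cells treated with PR-957 and cells treated with the solvent DMSO. Members were the 4 H3K4me1 libraries of the 18 in the series, 2 from DMSO and 2 from PR-957 (100 nM, 72 h), chosen by their labels alone. MOLM-13 is a single human acute myeloid leukemia cell line that carries the KMT2A::MLLT3 fusion, which is present in treated and control cells alike. PR-957, also called ONX-0914, inhibits PSMB8, the catalytic subunit that replaces its constitutive counterpart in the immunoproteasome. No label states whether the replicates came from separate cultures, so p-values measure the spread between these libraries, which may be technical.

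H3K4me1 is a histone mark of enhancers, where the KMT2C and KMT2D complexes place it, and of the flanks of active promoters, where it borders the H3K4me3 of the start site. Enhancers in use also carry H3K27ac, while H3K27me3 marks regions silenced by Polycomb. The response was therefore read separately at promoters (loci within 2 kb of a transcription start site of a protein-coding transcript), in gene bodies (other loci overlapping a protein-coding gene) and in intergenic loci (all remaining loci). A locus is a set of overlapping listed intervals, represented by the count of its widest interval, and 34932 such loci covered 157.2 Mb with a median length of 3.28 kb. Locus counts summed to 8400520 and 6617605 in DMSO and to 4242200 and 6385150 in PR-957, so PR-957 replicate 1 was the shallowest library. Of the marker genes, 9 of 10 myeloid ones (all but ELANE) had an H3K4me1 locus at the promoter in DMSO, against 2 of 6 T cell, 4 of 6 B cell, 2 of 6 erythroid, 1 of 4 liver and 1 of 4 neuronal markers. Level did not separate the lineages in the same way, since the marked genes had a median of 9.17 CPM per kb for myeloid, 9.54 for B cell and 7.94 for erythroid markers, against 4.27 over all promoter loci and 2.47 to 3.09 for the other 3 types.

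Sequences from loci on either side of the response are shown as examples. Those from loci that rose were picked because they hold the motif marked below, as did 34.4% of all loci that rose. The next 3 stretches (hg38, plus strand, 5′ to 3′) lie in loci where H3K4me1 rose with PR-957, and capitals mark a match to TGANTCA. This motif takes in TGACTCA, the consensus element of AP-1, the dimers of JUN and FOS proteins. It also takes in TGAATCA, the form near USP38, which is not that consensus. They come from a gene-body locus near VSIG8 (chr1:159869469-159869588), a locus in the body of KCNN3 (chr1:154729759-154729878) and an intergenic locus whose nearest start site is that of USP38 (chr4:143023072-143023191).
near VSIG8: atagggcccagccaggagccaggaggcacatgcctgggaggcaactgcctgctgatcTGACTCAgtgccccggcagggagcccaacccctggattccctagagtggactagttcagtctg
KCNN3: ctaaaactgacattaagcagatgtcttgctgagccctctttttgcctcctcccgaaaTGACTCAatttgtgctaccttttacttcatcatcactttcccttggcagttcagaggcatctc
near USP38: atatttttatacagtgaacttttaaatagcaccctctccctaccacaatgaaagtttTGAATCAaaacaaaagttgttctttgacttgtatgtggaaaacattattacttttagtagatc

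Both of the following stretches are the central 200 bases of promoter loci where H3K4me1 fell, with CpG dinucleotides in capitals. One lies at the ALS2CL and TMIE promoters (chr3:46695088-46695287) and the other at the SIRT7, MAFG and PYCR1 promoters (chr17:81926083-81926282), and neither holds TGANTCA in its central 500 bases. They hold 3 and 4 CpG, against a median of 4 at promoter loci that fell and 3 over all promoter loci. Such numbers are thus usual for promoter loci.
ALS2CL/TMIE: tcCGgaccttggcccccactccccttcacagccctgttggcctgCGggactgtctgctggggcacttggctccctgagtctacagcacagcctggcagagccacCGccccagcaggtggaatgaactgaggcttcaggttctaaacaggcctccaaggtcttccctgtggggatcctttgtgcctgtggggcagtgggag
SIRT7/MAFG/PYCR1: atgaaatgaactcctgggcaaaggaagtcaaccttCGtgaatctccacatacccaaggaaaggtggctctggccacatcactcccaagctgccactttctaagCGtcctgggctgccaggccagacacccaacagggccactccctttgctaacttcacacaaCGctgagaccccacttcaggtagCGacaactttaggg

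H3K4me1 changed at few loci. With the main scaling most called promoter loci fell and most called distal loci rose. With GC content levelled, promoters had 14 higher and 20 lower, gene bodies 45 and 56, and intergenic loci 37 and 34. Both leanings were then much weaker or gone. Of 34927 loci tested, 276 rose (0.79%) and 267 fell (0.764%) at an adjusted p of 0.05 (edgeR), 1.55% in either direction. Changes were mostly small, as 88.1% of loci stayed within 1.5-fold, and at least 2-fold changes were more frequent among the loci that rose (134) than among those that fell (26). Loci that rose had a median log2 fold change of 0.98 (0.42 to 2.85), a median distance of 31.6 kb from the nearest start site and a median GC content of 41.1%. Loci that fell had a median of -0.57 (-1.53 to -0.40), lay a median of 1.92 kb from a start site, and had a GC content of 53.1%, against 45.6% over all loci tested. In all 543 called loci both PR-957 libraries lay on one side of both DMSO libraries, as they did in 23.8% (above) and 23.99% (below) of the loci tested.

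These counts leaned on single libraries and on scaling. Leaving out DMSO replicate 2 left 0 loci past the edgeR threshold (4082 at an unadjusted p under 0.05, smallest adjusted p 0.302), so every locus named here loses its call there. Without DMSO replicate 1 there were 50 higher and 60 lower loci, without PR-957 replicate 1 there were 90 and 65, and without PR-957 replicate 2 there were 476 and 191. DESeq2 called 0 higher and 43 lower loci, and 6 and 5 without its independent filtering. Scaling by library size alone turned the split to 498 higher and 129 lower, and offsets that level each library's trend with GC content gave 96 and 110. Under all 5 scalings, 83 loci kept their call and direction, 55 of them higher and 28 lower. All scalings use the same libraries, so passing them does not show that a call is free of dependence on a single library.

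With the main scaling, position separated the directions, although these leanings weakened or went with GC offsets, as given below. Promoter loci, 8761 in number (25.1% of loci), had 30 that rose and 134 that fell (0.342% and 1.53%). Among 15260 gene-body loci tested the order was the opposite, with 143 higher and 68 lower (0.937% and 0.446%), and among 10906 intergenic loci tested 103 rose and 65 fell (0.944% and 0.596%). Median log2 fold changes were -0.11 at promoters, 0.069 in gene bodies and 0.024 in intergenic loci. Promoter loci held 36.7% and 36.5% of all locus counts with DMSO, and 34.4% and 35.1% with PR-957. Gene-body loci held 36.2% and 36.3% in DMSO and 37.96% and 37.5% in PR-957, so the groups did not overlap for either class (two-sided exact permutation test, p = 0.333, the smallest that 2 against 2 libraries allow). The promoter median lay below the intergenic one by a log2 difference of -0.15, -0.15, -0.11 and -0.11 in the 4 pairs of a PR-957 with a DMSO library, against -0.0049 between the DMSO replicates and -0.033 between the PR-957 replicates.

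The response also ran with the other modifications at the same loci. Loci with H3K4me1 alone, overlapping no tested locus of H3K27ac, H3K4me3 or H3K27me3, numbered 18703 and had 200 higher against 48 lower, with a median log2 fold change of 0.13. Loci that overlapped H3K4me3, 9366 in all, had 10 higher and 153 lower and a median of -0.14. Loci with H3K27ac but neither of the other modifications lay between, with 63 higher and 54 lower of 6096 and a median of -0.027. Loci with H3K27me3 and no H3K4me3, 762 in all, had 3 higher and 12 lower and a median of -0.055. Median GC content was 43.3% at H3K4me1 alone, 47.3% with H3K27ac only, 50.9% with H3K4me3 and 55.3% with H3K27me3 and no H3K4me3, so it did not follow the order of the medians in the last of these, and its part in this difference was not tested.

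**Figure D1:**
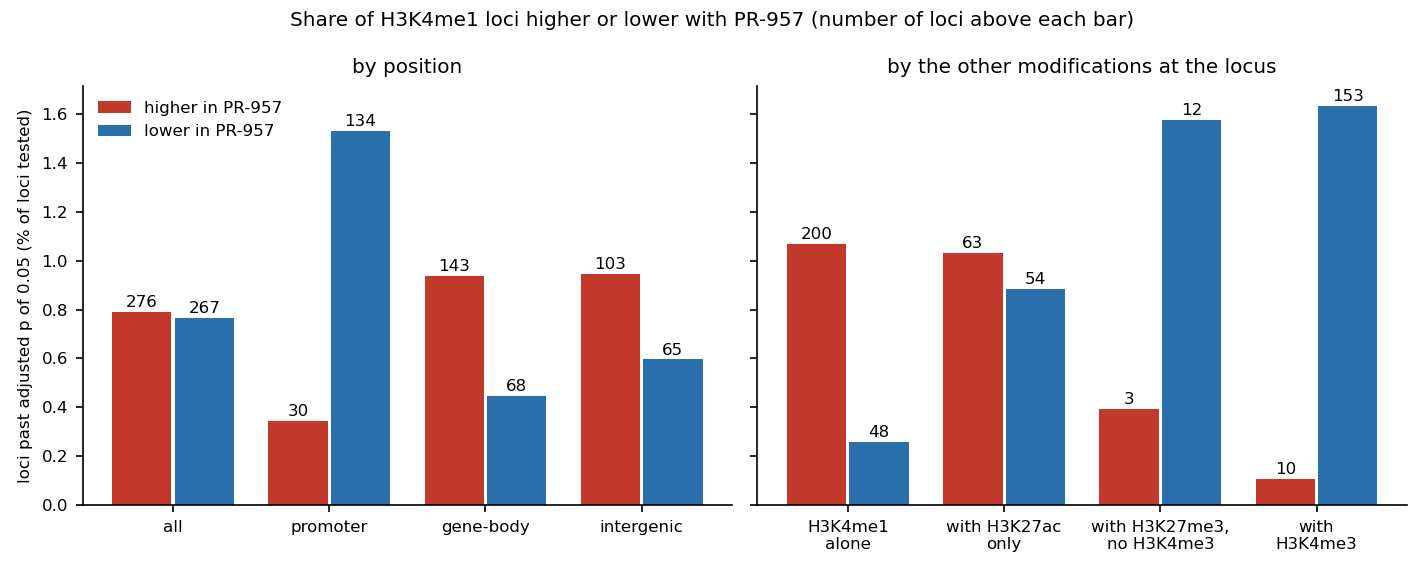
Bars give the share (%) of tested H3K4me1 loci past an edgeR adjusted p of 0.05, red for higher and blue for lower in PR-957, with the number of loci above each bar. With the main scaling shown, promoter loci (30 higher, 134 lower) and loci with H3K4me3 (10 higher, 153 lower) lean to the lower side. Gene-body loci (143 and 68) and loci with H3K4me1 alone (200 and 48) lean to the higher side.

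Loci where H3K4me1 rose in a gene body were led, by p-value, by a 6.37-fold change near VSIG8. This locus (chr1:159868572-159870408), 5915 bases from the VSIG8 start site and inside the unnamed gene ENSG00000256029, had 2.50 and 1.06 normalized CPM (counts scaled to library size) in DMSO and 13.3 and 10.4 CPM in PR-957 (log2 fold change 2.67 ± 0.41 SE, adjusted p = 0.000123). Both treated libraries were well above both controls, although the DMSO values rest on 20 and 7 counts. Inside ABCC3, which encodes an exporter of organic anions and belongs to the NFE2L2 target list below, the locus at chr17:50659511-50662857 rose from 16.5 and 15.8 CPM to 32.5 and 37.0 CPM (1.11 ± 0.17, adjusted p = 0.000123). In KCNN3, a calcium-activated potassium channel gene, values of 3.25 and 4.71 CPM became 15.8 and 14.4 CPM (chr1:154728447-154731665, 1.93 ± 0.30, adjusted p = 0.000158). A locus in TRPC4AP (chr20:35011742-35016979), an adaptor of a ubiquitin ligase, went from 9.87 and 10.2 CPM to 21.3 and 26.0 CPM (1.25 ± 0.21, adjusted p = 0.000629). Each of these 4 kept its call under all 5 scalings. Groups do not overlap at these and the other leading loci below because the choice of leading loci required it.

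Among intergenic loci the nearest start site is a name only, since no target gene was measured. The locus 231915 bases from SARAF, a regulator of calcium entry, had 8.37 and 8.96 CPM in DMSO and 21.5 and 26.7 CPM in PR-957 (chr8:29835414-29838034, 1.49 ± 0.22, adjusted p = 7.46e-05), the smallest p among all loci. Near USP38, a deubiquitinase gene, 23.5 and 29.5 CPM became 48.1 and 46.4 CPM (chr4:143019756-143026812, 0.84 ± 0.15, adjusted p = 0.000858). Loci near COL12A1 (1.07 ± 0.19, adjusted p = 0.000858) and near ANGPT1, which encodes angiopoietin 1 (1.24 ± 0.22, adjusted p = 0.00135), also rose. All 4 passed under each of the 5 scalings.

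Promoters with a rise were few. At CAPN2, the large subunit of a calcium-dependent protease, H3K4me1 went from 13.0 and 10.0 CPM to 23.4 and 25.7 CPM (chr1:223700061-223703936, 1.09 ± 0.20, adjusted p = 0.00241). The locus across the FAM219A and DNAI1 start sites had 5.12 and 7.44 CPM in DMSO and 12.8 and 17.4 CPM in PR-957 (chr9:34455991-34460581, 2.45-fold, adjusted p = 0.00765). It was the only H3K4me1-higher locus at which H3K4me3 also passed, with a log2 fold change of 0.85 and an adjusted p of 2.8e-06 in the separate H3K4me3 libraries. SBNO2, a transcriptional regulator in macrophages, rose from 50.0 and 46.8 CPM to 68.1 and 76.4 CPM (chr19:1166506-1173475, 0.58 ± 0.12, adjusted p = 0.00769). At ASPH the increase of 0.74 ± 0.15 (adjusted p = 0.00648) lost its call with GC offsets (adjusted p = 0.348), unlike the other 3. H3K27ac did not pass at these promoters in edgeR. Its log2 fold changes were 1.18 ± 0.37 at CAPN2 (adjusted p = 0.260), 0.47 ± 0.30 at FAM219A and DNAI1 (0.848) and 0.017 ± 0.11 at SBNO2 (0.996). ASPH overlapped no tested H3K27ac locus.

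Promoter loci where the mark fell were longer (median 6.18 against 3.795 kb) and had more CPM per kb (6.05 against 4.63) than those where it rose. Over all promoter loci the median length was 4.06 kb. Median mean counts were 291 where the mark fell and 102 where it rose. Small changes pass more readily at high counts, and the part of this in the difference was not tested. At ALS2CL and TMIE, values of 31.1 and 34.9 CPM in DMSO became 15.6 and 18.3 CPM in PR-957 (chr3:46693013-46697374, -0.94 ± 0.17, adjusted p = 0.002). One broad locus over SIRT7, a deacetylase gene, MAFG, a partner of NFE2L2, and PYCR1, an enzyme of proline synthesis, fell from 170 and 168 CPM to 99.9 and 121 CPM (chr17:81914947-81939956, -0.60 ± 0.12, adjusted p = 0.00395). CLDN19 fell by 0.67 on the log2 scale (adjusted p = 0.00521) and KIAA0232 by 0.71 (adjusted p = 0.00648). With GC offsets the MAFG locus (adjusted p = 0.0771) and CLDN19 (adjusted p = 0.0516) missed the threshold. H3K27ac did not pass at these loci (log2 fold changes of 0.03, 0.17, -0.05 and -0.56 in the same order).

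Distal loci that fell numbered 68 in gene bodies and 65 in intergenic regions, of which 11 and 9 kept their call under all 5 scalings, and the 8 named next are among these. In ZFR2, 68.1 and 72.9 CPM became 38.7 and 42.9 CPM (chr19:3808344-3815361, -0.78 ± 0.13, adjusted p = 0.000357). ATP2B2, a plasma membrane calcium pump gene, went from 81.2 and 96.0 CPM to 46.5 and 59.3 CPM (chr3:10418053-10430555, -0.73 ± 0.13, adjusted p = 0.000858). Loci in CPNE2 and in ARSG, a lysosomal sulfatase gene, fell by 0.62 and 0.59 on the log2 scale (adjusted p = 0.00437 for both). Intergenic loci near FGF9, RPL29, MTPAP and SPIN1 fell by 0.82, 0.74, 0.57 and 0.63, with adjusted p-values of 0.00127 to 0.00648.

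**Figure D2:**
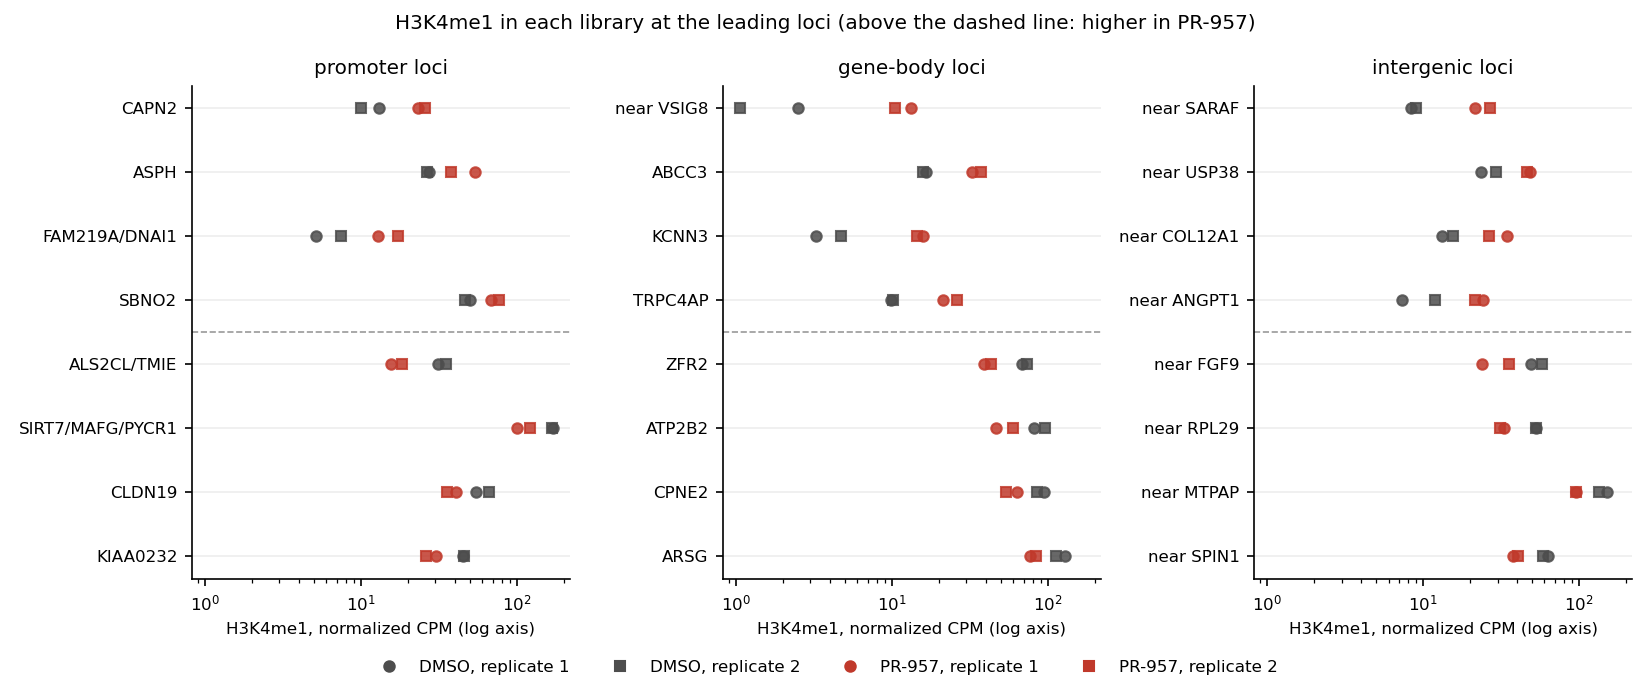
Each point is the normalized CPM (log axis) of 1 library at a locus, gray for DMSO and red for PR-957, with circles for replicate 1 and squares for replicate 2; rows are the 4 loci with the smallest p per position and direction. At all 24 loci the gray and red points are apart, which the choice of loci required. In KCNN3, for example, they are 3.25 and 4.71 against 15.8 and 14.4 CPM.

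A motif that takes in the AP-1 element was more frequent in loci that rose than over all loci, though little so at the lowest GC content. TGANTCA, which reads the same on both strands, stood in the central 500 bases of 34.4% of the loci that rose (95 of 276), of 7.87% of those that fell (21 of 267) and of 18.9% of all loci tested. This order held in each position class, with 30.0%, 32.2% and 38.8% of higher promoter, gene-body and intergenic loci against 14.3%, 19.4% and 21.9% of all loci of these classes. The form TGACTCA (or its complement TGAGTCA), the consensus AP-1 element, was held by 23.6% of higher, 6.74% of lower and 12.8% of all loci. Among the 83 loci called under every scaling, TGANTCA stood in 27 of the 55 higher ones (49.1%) and in 2 of the 28 lower ones (7.14%). A match is a description of the letters and does not show that a factor was bound.

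The order of these shares was the same after levelling GC content: with the GC offsets, 46.9% of the 96 higher loci held the motif against 10.0% of the 110 lower ones. When loci were cut into 5 equal bins of GC content, 51.4%, 50.0% and 50.0% of higher loci in bins 3, 4 and 5 held it, against 20.7%, 18.5% and 13.6% of all loci there. In the lowest GC bin, which holds 137 of the 276 higher loci, the shares were closer, at 23.4% and 20.4%. The share among higher loci was 32.2% outside chromosome 8 and, in the 3 fits without 1 library that left calls, between 28.4% and 50.6%.

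Over all loci tested, and so without regard to calls, the change in H3K4me1 grew with the number of matches. Median log2 fold changes were -0.010 at the 28325 loci without a match, 0.065 at 5819 with 1 match and 0.16 at 724 with 2. The same order held in each of the 4 pairs of a PR-957 with a DMSO library, with medians of -0.024 to -0.0063 without a match, 0.048 to 0.068 with 1 and 0.13 to 0.19 with 2. Loci with a match exceeded those without by 0.087, by 0.060 with GC offsets, and by 0.046 to 0.084 within the GC bins. For the TGACTCA form the GC offsets left a difference of 0.080, and for TGAATCA (or TGATTCA) one of 0.020. These differences are small beside the changes at single called loci, and in counts they came to 16.6% and 16.7% of the DMSO libraries in loci with a match against 17.2% and 17.1% of the PR-957 libraries.

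Shares of the 4 other motifs, searched on either strand, were closer together with the main scaling. TGACNNNGC, the core of the antioxidant response element, which can overlap TGANTCA, was held by 23.2% of higher, 20.6% of lower and 19.2% of all loci, but by 36.5% of higher and 16.4% of lower loci with GC offsets, and by 30.9% and 10.7% of those called under every scaling. Without DMSO replicate 1 the order was the opposite, at 18% of higher and 28.3% of lower loci. TTGCNNAA (C/EBP) stood in 30.1%, 17.98% and 25.1%, GAGGAAGT (PU.1) in 5.07%, 4.12% and 5.13%, and TGTGGT (RUNX) in 31.5%, 35.6% and 35.1%. Within GC bins, loci with and without these 4 motifs differed in median log2 fold change by -0.038 to 0.030.

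**Figure D3:**
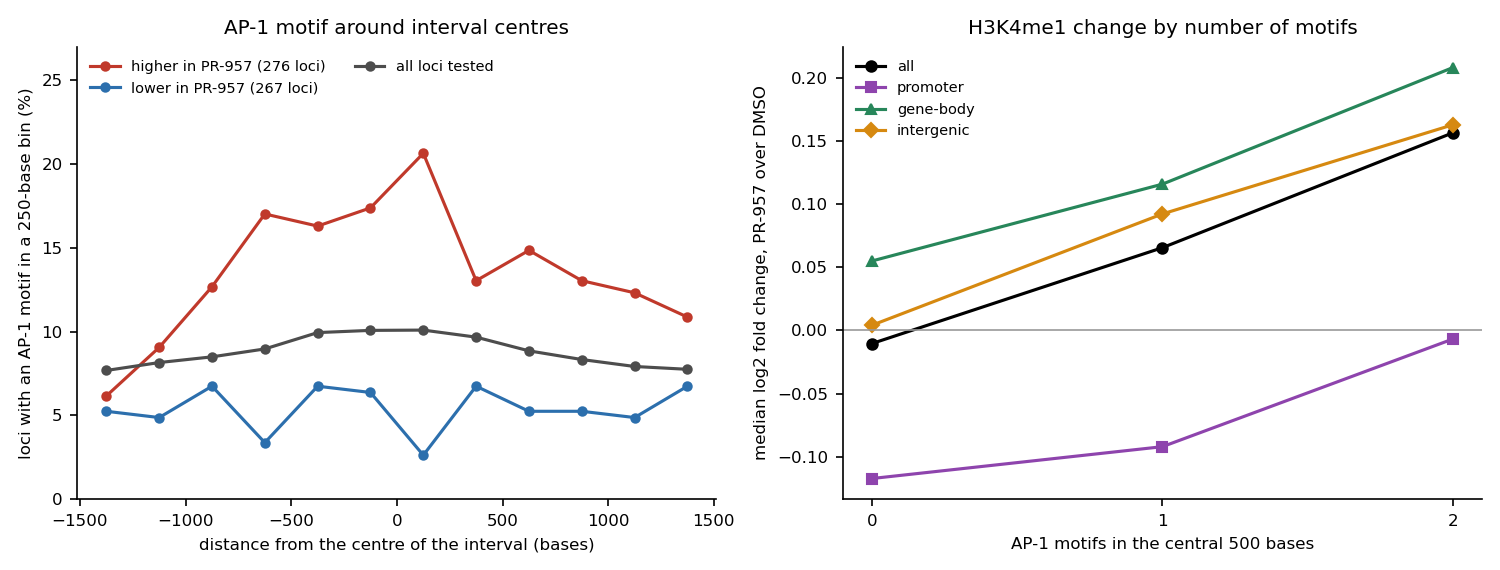
Left, the share of loci (%) with TGANTCA (labelled AP-1 motif, both forms together) in each 250-base bin against distance from the interval centre in bases. Higher loci are red, lower blue and all tested loci gray. The share reaches 20.7% next to the centre in higher loci and 10.1% over all loci. Right, the median log2 fold change by the number of motifs in the central 500 bases, which over all loci runs from -0.010 to 0.065 and 0.16.

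GC content and the response moved together across all loci. Over the 5 GC bins, from lowest to highest, median log2 fold changes were 0.25, 0.087, -0.018, -0.095 and -0.16. Calls followed, with 137, 62, 35, 26 and 16 loci higher and 1, 13, 27, 79 and 147 lower. Loci of the lowest bin took 9.67% and 9.61% of counts in DMSO and 12.1% and 10.97% in PR-957, and those of the highest took 28.0% and 28.3% in DMSO and 25.5% and 26.7% in PR-957. Promoter loci are rich in GC, with 44.2% of them in the highest bin. Within every bin, however, promoters had the lowest median of the 3 classes (0.19 against 0.26 for both others in the lowest bin, and -0.18 against -0.10 and -0.14 in the highest). With GC offsets the class medians were -0.070 for promoter, -0.013 for gene-body and -0.039 for intergenic loci. All were below 0, as was the median over all loci in that fit (-0.037), above which gene bodies still lay. Calls then numbered 14 higher and 20 lower at promoters, 45 and 56 in gene bodies, and 37 and 34 in intergenic loci, and gene bodies no longer leaned to the higher side. Level ran the same way, since of 5 equal bins by mean count the lowest had a median of 0.36 and the highest one of -0.13, and whether library chemistry or depth plays a part was not tested.

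**Figure D4:**
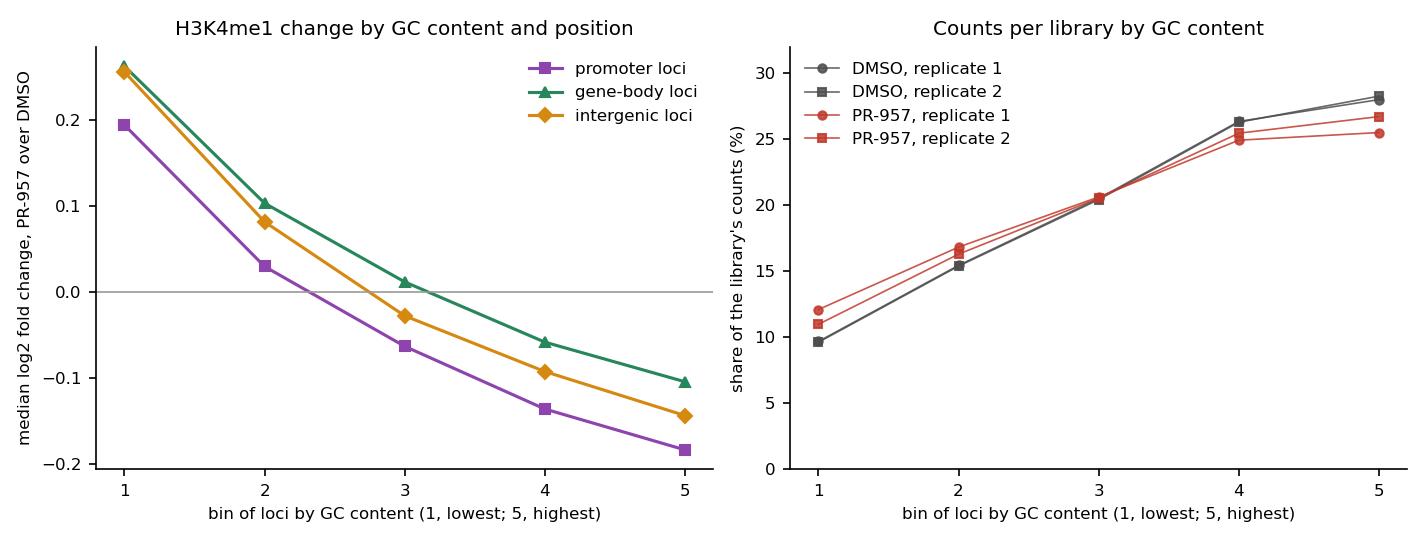
Left, median log2 fold change of H3K4me1 for 5 equal bins of loci by GC content, as squares for promoter, triangles for gene-body and diamonds for intergenic loci. Right, the share (%) of each library's locus counts in these bins, gray for DMSO and red for PR-957, where the lowest bin holds 9.67% and 9.61% in DMSO against 12.1% and 10.97% in PR-957.

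Increases were frequent on chromosome 8. It carries 6.51% of the loci but 71 of the 276 that rose (25.7%), or 3.12% of its loci against 0 to 1.39% on the other chromosomes, while 13 of its loci fell. Without DMSO replicate 1 it held 10 of the 50 higher loci, without PR-957 replicate 1 it held 13 of 90, without PR-957 replicate 2 it held 88 of 476, and without DMSO replicate 2 no locus passed. The libraries held 9.02% and 9.25% of counts there in DMSO and 9.62% and 9.38% in PR-957. Treated libraries were thus higher, but the closest pair across groups (9.25% and 9.38%) lay nearer together than the replicates of either group. With GC offsets 19 of the 96 higher loci lay on it and its median fell from 0.088 to 0.0095. Chromosome 19, with a median GC content of 53.4%, had the lowest median (-0.13), with 4 loci higher and 34 lower.

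H3K27ac, measured in separate libraries, seldom passed at the same places, and its median changes there were small. An H3K27ac locus overlapped 73 of the 276 H3K4me1-higher loci (26.4%) and 195 of the 267 H3K4me1-lower ones (73.0%), against 41.1% of all loci. At the 73, median H3K27ac log2 fold change was 0.15 with 49 above 0, and at the 195 it was -0.042 with 117 below 0, against a median of -0.012 over all H3K4me1 loci with the mark. In edgeR 0 of the 73 (6 higher and 2 lower at an unadjusted p under 0.05) and 1 of the 195, lower, passed the H3K27ac test, where 0.131% of 30621 loci did. That 1 lay in the body of HOXA13 (H3K27ac log2 fold change -0.20, adjusted p = 0.00976), and its H3K4me1 call was lost with GC offsets (adjusted p = 0.178). The same H3K27ac locus overlaps the promoter loci of HOXA7 and of HOXA10 and HOXA11, which did not pass for H3K4me1. H3K4me3 overlapped 10 higher and 153 lower loci. Of these only the FAM219A and DNAI1 locus passed (0.198% of 16122 H3K4me3 loci did), and the median H3K4me3 change at the 153 was -0.031. H3K27me3 overlapped 3 higher and 46 lower loci, and 11 of the 46 (23.9%) were lower in H3K27me3. This is near the 17.9% of all H3K4me1 loci with H3K27me3 that were lower in it, while 4.03% of 12355 H3K27me3 loci passed in either direction.

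Genes that the KMT2A fusion drives were read first among the gene lists, as the study concerns their expression. Of 21 such target genes, 13 had a promoter locus, and the most strongly marked promoter locus of each gene came to 12 distinct loci. Of these, 0 passed in edgeR and 2 were lower at an unadjusted p under 0.05, where 15.6% of all promoter loci were. Their log2 fold changes had a median of -0.16, from -0.39 to 0.081, with 11 of 12 below 0, against a median of -0.11 and 65.7% below 0 over all promoter loci. RUNX2, a transcription factor gene, passed at a second, weaker promoter locus (chr6:45421492-45424752), with 13.5 and 11.4 CPM in DMSO and 5.27 and 5.65 CPM in PR-957 (-1.18 ± 0.29, adjusted p = 0.0257, 0.0603 with GC offsets). Groups did not overlap there. HOXA10 and HOXA11 share a locus with 56.5 and 49.8 CPM in DMSO and 39.6 and 41.5 CPM in PR-957 (-0.39 ± 0.13, adjusted p = 0.108). FLT3, a receptor kinase, had 74.7 and 68.6 against 75.4 and 67.5 CPM (-0.01 ± 0.12), with overlapping groups. The 98 loci in the bodies of these genes had a median of 0.20, with 15 higher and 4 lower at an unadjusted p under 0.05, against a median of 0.069, 10.3% higher and 5.74% lower over all gene-body loci. They are spread unevenly, with 21 in PBX3, 18 in RUNX2 and 14 in MEF2C, so they describe a few genes more than the list. Whether GC content or level plays a part was not tested. Of the 98, 1 passed (0.937% of all gene-body loci rose and 0.446% fell), in HOXA13 (-0.53 ± 0.14, adjusted p = 0.0368, 0.178 with GC offsets), where 45.0 and 44.04 CPM became 28.4 and 32.7 CPM.

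Genes of the H3K4 methylation machinery gave 1 lower promoter among 11 with a locus, PAGR1, a subunit of the KMT2C and KMT2D complexes (-0.44 ± 0.12, adjusted p = 0.0338, 0.294 with GC offsets), where 1.53% of all promoter loci fell. Its values were 115 and 111 CPM in DMSO and 86.2 and 81.4 CPM in PR-957, without overlap. KMT2A itself had 3.87 and 4.40 against 4.13 and 5.80 CPM (0.29 ± 0.44, adjusted p = 0.786), and the groups overlapped. Of 34 body loci 2 rose, both in demethylase genes, where 0.937% of all gene-body loci did. In KDM5A, which removes H3K4me3, 3.75 and 4.56 CPM became 10.8 and 11.3 CPM (1.42 ± 0.34, adjusted p = 0.0215, 0.0372 with GC offsets). In KDM1A, 2.00 and 1.82 CPM became 10.5 and 3.51 CPM (1.82 ± 0.51, adjusted p = 0.0492, 0.128 with GC offsets), with the treated replicates far apart.

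Targets of NFE2L2, the transcription factor of the antioxidant response, had 19 promoter loci among 28 genes. Of these only that of MAFG, which it shares with SIRT7 and PYCR1, passed, where 1.53% of all promoter loci fell. HMOX1, which encodes heme oxygenase, had 38.7 and 37.1 CPM in DMSO and 45.2 and 49.5 CPM in PR-957 (0.32 ± 0.14, adjusted p = 0.198). In the bodies of the list's genes, 3 of 26 loci rose and none fell, where 0.937% of all gene-body loci rose and 0.446% fell. At an unadjusted p under 0.05, 9 of the 26 were higher and 0 lower, against 10.3% and 5.74% of all gene-body loci. The 3 that rose were the ABCC3 locus above and 2 loci in GCLC, which encodes the catalytic subunit of the enzyme that starts glutathione synthesis. The GCLC loci went from 10.5 and 14.1 CPM to 22.5 and 19.6 CPM (0.77 ± 0.21, adjusted p = 0.0418), and from 6.87 and 6.53 CPM to 16.0 and 12.5 CPM (1.07 ± 0.27, adjusted p = 0.028). With GC offsets ABCC3 kept its call (adjusted p = 4.95e-07), while those in GCLC did not (0.157 and 0.0813).

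No promoter of the myeloid, proteasome, MHC class I or heat shock lists passed. Myeloid genes had 20 of 28 promoters marked, with a median of -0.27 and 18 below 0 (0 called by edgeR, 8 lower at an unadjusted p under 0.05). Over all promoter loci the median was -0.11, 65.7% were below 0 and 15.6% were lower at an unadjusted p under 0.05. Median GC content was 51.3% at the 20 and 51.2% over all promoter loci. CSF1R, the receptor of a monocyte growth factor, went from 167 and 158 CPM to 121 and 127 CPM (-0.39 ± 0.11, adjusted p = 0.0594), and SPI1, which encodes PU.1, from 28.0 and 29.2 CPM to 21.8 and 20.0 CPM (-0.46 ± 0.17, adjusted p = 0.145). With GC offsets the log2 fold changes were -0.34 at CSF1R and -0.32 at SPI1. Constitutive proteasome subunits had a locus at 10 of 31 promoters, with a median of 0.46, 7 above 0, 0 called and 4 higher at an unadjusted p under 0.05. Over all promoter loci 3.21% were higher at that p. Median GC content was 43.6% at the 10 against 51.2% over all promoter loci. The lowest of 5 equal bins of all loci by mean count had a median log2 fold change of 0.36. Several of the proteasome loci were sparse, as at PSMA3, with 1.25 and 2.28 CPM in DMSO and 4.58 and 6.11 CPM in PR-957 (1.63 ± 0.53, adjusted p = 0.0932). Of the 14 immunoproteasome and MHC class I genes only NLRC5 and IRF1 had a promoter locus (-0.09 and -0.02), and PSMB8, the target of PR-957, had none, nor did BASP1. AP-1 and MAF genes were marked at 13 of 13 promoters with a median of -0.23. MAFG was the 1 that passed, where 1.53% of all promoter loci fell. At an unadjusted p under 0.05, 5 of the 13 were lower and 0 higher, against 15.6% and 3.21% of all promoter loci. Median GC content was 56.4% at the 13, above the 51.2% over all promoter loci, and its part was not tested. JUN had 11.2 and 15.3 against 10.8 and 7.48 CPM (-0.56 ± 0.26, adjusted p = 0.254, log2 fold change -0.40 with GC offsets). Heat shock and unfolded protein response genes had 13 of 20 promoters marked, a median of -0.12, 0 called and 2 lower with 1 higher at an unadjusted p under 0.05.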

How the data were processed

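Cut & Tag reads had been trimmed, aligned to hg38 with Bowtie2 and turned into intervals by the authors, and the submitters' processing notes name Trimmomatic 0.39, Bowtie2 2.2.5, Picard 2.27.1, SAMtools 1.7, SEACR 1.3 and deepTools 3.5.1. The deposited values are raw counts per interval, 1 file per library over a list of 108165 intervals shared by the 4 H3K4me1 libraries. The counting tool and the handling of duplicate reads are not given in the sources used here. Interval totals were 15204186 to 30584219 per library and count overlapping intervals repeatedly.

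Overlapping intervals were merged to loci and annotated with GENCODE release 44. Counts were tested with edgeR 4.0.16 (R 4.3.3; TMM, filterByExpr with a minimum count of 10, quasi-likelihood test, Benjamini-Hochberg adjustment over all loci). TMM factors were 0.953 to 1.03 and the common biological coefficient of variation was 10.6%. In simulated counts 60% of 200 loci changed 2-fold and 24.5% of those changed 1.5-fold were recovered among 34927. Same-numbered replicates did not deviate together (r = 0.035), so no block was used. DESeq2 1.42.0 and limma 3.58.1 (cyclic loess) served as alternatives. Named loci are the 4 with the smallest p per position and direction without overlap between groups, plus called loci of the gene lists, KMT2A, BASP1 and PSMB8. Further list genes were named after their values were seen. The split of TGANTCA into its forms and the counts by number of matches were chosen after seeing the data, and the members and lists were chosen with earlier results of these data known. Coordinates are as the files list them, and sequences are from the hg38 reference. The treatment time is that of the labels, while a legend of the study gives a shorter one for Cut & Tag.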

Additional observations from a re-analysis of the deposited data

How the results depend on the processing

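Higher and lower loci numbered 276 and 267. Median-of-ratios size factors, no count filter, leaving out chromosome 8, the interval with the highest mean count, and promoter windows of 1 and 5 kb kept each count within 1.5 times. Library size alone gave 498 and 129 (promoter 51 and 68, gene-body 272 and 29, intergenic 175 and 32). Cyclic loess gave 175 and 64 (gene-body 94 and 16, intergenic 61 and 14, promoter lower 34, promoter minus intergenic median -0.089 against -0.14). GC offsets gave 96 and 110 (promoter 14 and 20, gene-body 45 and 56, intergenic 37 and 34, difference -0.030). A mean count of at least 50 gave 479 higher (51, 263 and 165 by class) and a difference of -0.094. Thinning to the smallest library gave 158 and 133 (promoter 14 and 62, gene-body 86 and 41, intergenic 58 and 30). DESeq2 called 0 higher in any class and 43 lower (27 promoter, 2 gene-body, 14 intergenic), where independent filtering left 33180 loci without an adjusted p. At an unadjusted p under 0.05 it had 1307 higher and 1542 lower. Without that filtering, added after seeing the data, it called 6 higher (0, 5 and 1) and 5 lower (1, 2 and 2), all within the edgeR calls. Start sites of every transcript, also added later, gave 54 higher promoter loci.

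Leaving out 1 library gave 0 to 476 higher and 0 to 191 lower loci. By class the ranges were 0 to 43 and 0 to 86 for promoter, 0 to 263 and 0 to 55 for gene-body, and 0 to 170 and 0 to 50 for intergenic loci, with 0 always from leaving out DMSO replicate 2 and the highest higher counts from leaving out PR-957 replicate 2. A replicate block, although the numbers do not pair the libraries, gave 432 and 387 (promoter higher 47, gene-body 230 and 112, intergenic higher 155). None of the 31 named loci that were followed through the settings changed sign. Among list genes named after their values were seen, IRF1 went from -0.02 to 0.096 with GC offsets. With 2 libraries a group at these depths, a 1.5-fold change was recovered in 24.5% of simulated cases.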
